A study of Homo sapiens with 8 samples.

Results

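The histone genes of the clusters are the genes that encode the linker histone H1 and the core histones H2A, H2B, H3 and H4 in groups on human chromosomes 6 and 1, with a single gene on chromosome 12. They were taken from the array by their names, as all probes whose gene name began with HIST1H, HIST2H, HIST3H or HIST4H. This gave 69 genes of 43317 named genes, measured by 85 probes. The genes were 6 of H1, 17 of H2A, 19 of H2B, 13 of H3 and 14 of H4. On hg19, 35 of them lay on chromosome 6 between 25726563 and 26285556 and 21 on chromosome 6 between 27100318 and 27861647, with 12 on chromosome 1 and 1 on chromosome 12.

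The data were 8 Agilent 2-colour arrays of human cancer cell lines. Each array set transfected cells (Cy5, Lipofectamine RNAiMAX) against mock cells of their own line (Cy3), which per the labels had no transfection. A498 and 786-O, both renal cancer lines, received the miRNA strand miR-139-5p or miR-139-3p, with 1 array per strand and line. MDA-MB-231, a breast cancer line, received siRNA 1 or siRNA 2 against GINS1, a subunit of the replicative helicase complex (group si-GINS1, 2 arrays). HCT116, a colorectal cancer line, received miR-490-5p or miR-490-3p (1 array each). The replicates of the miR-139 groups were therefore cell lines and those of si-GINS1 were siRNAs, each array being 1 sample. The limma fit pooled the spread between lines and the spread between siRNAs, with 3 residual degrees of freedom. A p-value or SE for si-GINS1 therefore rests also on the renal lines and does not measure the spread between siRNAs alone. Each SD is that of the 2 arrays named. The dose and the time of harvest are not in the labels, and the mock cells are not labelled as having received lipid or a control RNA. Dyes were not swapped on any array. The labels do not say whether both arrays of a line carried 1 mock extract.

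Most of these genes are transcribed in S phase, when new DNA has to be packed into nucleosomes. Their mRNAs usually end in a conserved stem-loop bound by SLBP instead of a poly(A) tail, and they are degraded when DNA synthesis stops. Some members are known to give polyadenylated transcripts as well, mostly in cells that leave the cycle. The histone variants such as H2A.Z and H3.3 come from single genes outside the clusters and are made throughout the cycle. In bulk RNA, fewer cells in S phase and less histone mRNA per cell cannot be told apart.

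Copies within a class are alike in sequence, so the probes were compared first. A probe was counted as near-identical to another gene's probe when at least 80% of bases were the same over an overlap of at least 30 bases. This held for 42 of the 85 probes, of which 0 were H1, 7 H2A, 12 H2B, 12 H3 and 11 H4. Values of such genes are uncertain as to which copy was read. Probes were compared only with each other, not with histone mRNAs. A probe outside this count may therefore also read other copies. The sets below show the alignments behind the H2B, H3 and H2A results. Each is a 60-base probe, 5′ to 3′ on the transcript strand with hg19 coordinates, and capitals mark bases that differ from the first probe of the set.

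The H2B set shows how alike the probes are in 4 of the genes that lay above 0.8 with siRNA 1. For HIST1H2BK it is the body probe, not the brighter downstream probe, which had no near-identical probe. The body probe of HIST1H2BK shared 51 of 55 overlapping bases with HIST1H2BD, 46 of 51 with HIST1H2BC and 40 of 46 with HIST1H2BG.
HIST1H2BK, chr6:27114437-27114496 (-): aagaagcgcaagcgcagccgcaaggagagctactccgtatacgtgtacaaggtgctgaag
HIST1H2BD, chr6:26158474-26158533 (+): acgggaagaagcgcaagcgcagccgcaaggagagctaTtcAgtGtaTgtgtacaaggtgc
HIST1H2BC, chr6:26123983-26124042 (-): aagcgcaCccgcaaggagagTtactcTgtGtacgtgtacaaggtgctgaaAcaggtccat
HIST1H2BG, chr6:26216717-26216776 (-): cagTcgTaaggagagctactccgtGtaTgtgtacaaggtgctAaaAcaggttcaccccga

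The H3 set holds genes whose ratios in MDA-MB-231 were far apart although the probes were alike. HIST2H3D shared 45 of 54 bases with HIST1H3B, 34 of 40 with HIST3H3 and 28 of 35 with HIST1H3C.
HIST2H3D, chr1:120904981-120905040 (+): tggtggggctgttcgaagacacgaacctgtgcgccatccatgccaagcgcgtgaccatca
HIST1H3B, chr6:26031922-26031981 (-): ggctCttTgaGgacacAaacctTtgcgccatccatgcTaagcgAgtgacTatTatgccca
HIST3H3, chr1:228612646-228612705 (-): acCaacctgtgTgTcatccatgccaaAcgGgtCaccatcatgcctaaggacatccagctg
HIST1H3C, chr6:26045965-26046024 (+): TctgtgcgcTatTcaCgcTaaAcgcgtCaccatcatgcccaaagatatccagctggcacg

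The H2A set holds 3 genes that passed the test with si-GINS1 and HIST1H2AD, which did not. HIST1H2AK shared 51 of 58 bases with HIST1H2AJ, 43 of 51 with HIST1H2AH and 53 of 60 with HIST1H2AD.
HIST1H2AK, chr6:27805729-27805788 (-): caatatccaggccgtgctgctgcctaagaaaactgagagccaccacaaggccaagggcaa
HIST1H2AJ, chr6:27782132-27782191 (-): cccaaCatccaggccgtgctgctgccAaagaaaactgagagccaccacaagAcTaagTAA
HIST1H2AH, chr6:27115246-27115305 (+): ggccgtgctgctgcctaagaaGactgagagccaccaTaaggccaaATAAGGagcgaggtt
HIST1H2AD, chr6:26199083-26199142 (-): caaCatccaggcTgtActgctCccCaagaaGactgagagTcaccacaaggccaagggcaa

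The stem-loop that ends these mRNAs was found inside 6 of the 85 probes, by the histone stem-loop motif on the probe strand. The stretches around it are given below. A search by motif finds only stem-loops that match the motif. The likeness between classes therefore cannot be read as low variation. Capitals mark the stem-loop, and coordinates are hg19.
HIST1H2AI, chr6:27776418-27776445 (+): aaccaaaGGCTCTTTTCAGAGCCaccta
HIST1H2BE, chr6:26184431-26184458 (+): acccaaaGGCTCTTTTCAGAGCCactca
HIST1H3H, chr6:27778287-27778314 (+): acccaaaGGCTCTTTTCAGAGCCaccca
HIST2H3A, chr1:149824660-149824685 (+): tccaaaaGGCTCTTTTCAGAGCCacc
HIST1H4K, chr6:27798954-27798978 (-): aacaaaaGGCCCTTTTTAGGGCCcc
The sixth was a HIST1H2BF probe. Ratios of the stem-loop probes with siRNA 2 ran from -2.03 on the log2 scale for HIST2H3A to -0.01 for HIST1H2BF, which was not above background in mock MDA-MB-231.

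Promoters of the classes differed in their elements. Of the 69 genes, 62 matched a promoter in RefSeq (GRCh38.p14), and the 250 bases before the start were searched on both strands. TATAAA, the TATA box, was in 3 of 6 H1, 11 of 15 H2A, 12 of 18 H2B, 8 of 11 H3 and 7 of 12 H4 promoters, against 11.1% of 27305 promoters of all genes. CCAAT was in all H1, H2A, H2B and H3 promoters and in 3 of 12 H4 promoters, against 33.0% of all promoters. ATTTGCAT, the octamer bound by Oct-1, was in 14 of 18 H2B and 11 of 15 H2A promoters, in 1 of 11 H3 promoters and in 0 of the H1 and H4 promoters, against 1.66% of all promoters. Divergent H2A and H2B pairs can share 1 promoter region, so these counts are not independent. The genes below are the 2 highest H2B genes with siRNA 1 and the lowest H3 and H4 genes with siRNA 2, with the 120 bases before the start and all matches in capitals.
HIST1H2BK, GRCh38.p14 chr6:27146859-27146978 (-): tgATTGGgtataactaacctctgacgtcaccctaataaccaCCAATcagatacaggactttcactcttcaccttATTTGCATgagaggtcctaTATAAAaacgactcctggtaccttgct
HIST1H2BG, GRCh38.p14 chr6:26216689-26216808 (-): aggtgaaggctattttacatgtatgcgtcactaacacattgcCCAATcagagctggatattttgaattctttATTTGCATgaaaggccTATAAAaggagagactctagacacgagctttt
HIST1H3B, GRCh38.p14 chr6:26032100-26032219 (-): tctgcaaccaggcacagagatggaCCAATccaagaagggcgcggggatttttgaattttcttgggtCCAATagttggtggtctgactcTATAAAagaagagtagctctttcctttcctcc
HIST1H4B, GRCh38.p14 chr6:26027284-26027403 (-): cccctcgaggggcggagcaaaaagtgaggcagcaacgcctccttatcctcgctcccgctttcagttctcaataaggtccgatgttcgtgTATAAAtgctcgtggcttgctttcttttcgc

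All values that follow are log2 ratios of Cy5 over Cy3, that is transfected over mock, unless a sentence says otherwise. A probe counted as measured on an array when either channel was well above background. This held for 63 of the 85 probes on all 8 arrays, for 15 on some arrays and for 7 on none. HIST1H1A, HIST1H1T, HIST1H2BA, HIST2H2BA and HIST1H4G were above background on none. Medians are over the 54 genes whose brightest probe was above background on all 8 arrays, namely 3 of H1, 14 of H2A, 13 of H2B, 13 of H3 and 11 of H4. The median brightness of all probes was low, from 19.8 units, and 0 spots were saturated. The labelled lines were checked by markers in the mock channel. They set the lines apart only in part. CDX2 was above background in HCT116 only, but the other intestinal genes were so in all lines (CDX1) or in none (VIL1). The kidney genes PAX8, PAX2 and LHX1 were all brightest in A498 and 786-O. However, PAX8 and LHX1 were above background in all 4 lines, and PAX2 in all but MDA-MB-231. KRT18, listed for luminal breast, was brightest in HCT116, while GATA3 of the same list was brightest in MDA-MB-231, at 111.9 units. ESR1, a marker of luminal breast cells, was dim in all 4 lines, at 31.3 units or less. EPCAM and CDH1, of epithelial adhesion, were brightest in HCT116, at 4803 and 718 units. VIM and ZEB1, listed as mesenchymal, were dimmest in HCT116, at 90.55 and 56.4 units.

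GINS1 knockdown in MDA-MB-231 was where histone genes lay furthest from the mock. The targeted gene itself read -1.31 with siRNA 1 and -1.92 with siRNA 2, a mean of -1.61 ± 0.43 (SD, n = 2, SE 0.15, limma adjusted p = 0.0174). Over all 54 histone genes the median was -0.06 with siRNA 1 and -0.70 with siRNA 2, beside 0.02 and 0.00 over all genes. With siRNA 2, 47 of the 54 genes were below 0 and 16 at or below -1, beside 8006 and 259 of 16314 genes of all kinds. With siRNA 1, 0 were at or below -1, and 6, all H2B, were at or above 1, beside 419 and 196 of 16315.

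**Figure D1:**
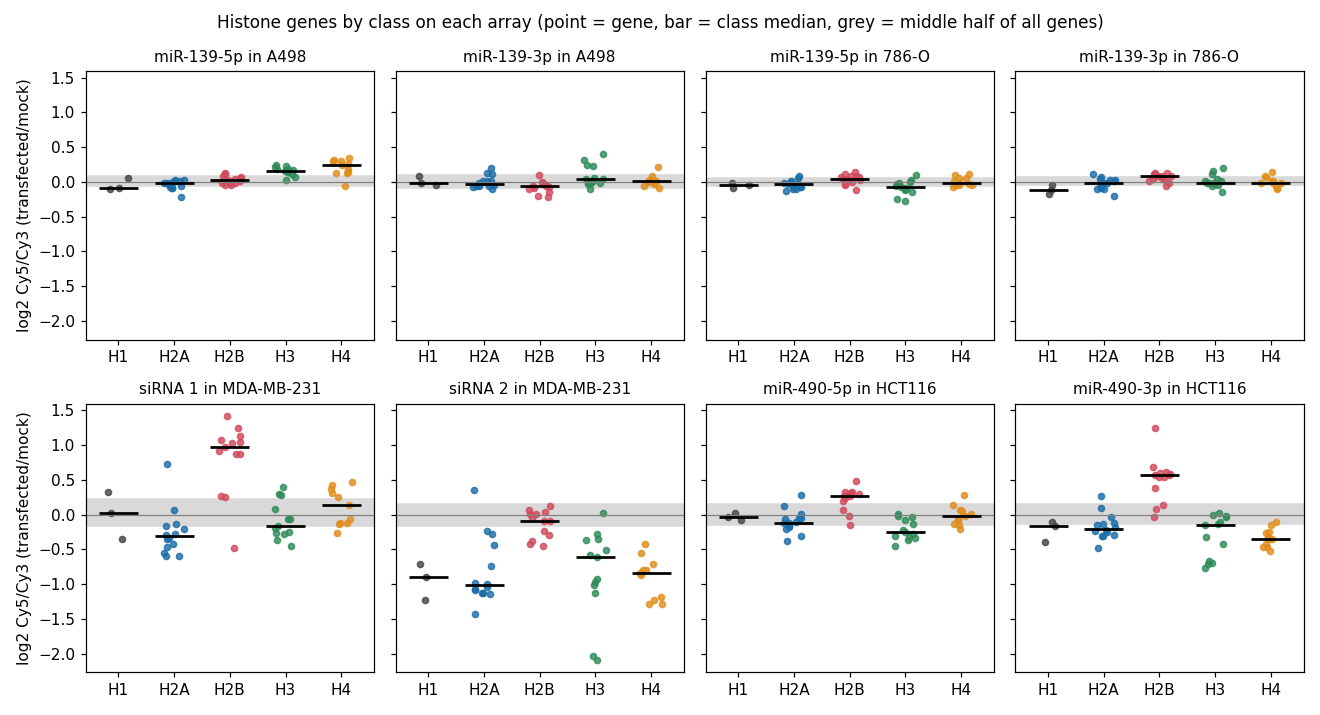
Log2 ratio of Cy5 over Cy3 (transfected over mock) of the 54 histone genes above background on all 8 arrays, by class, 1 panel per array, with the middle range of all genes in grey. Points are genes and bars are class medians. With siRNA 2 the H2A median is -1.02 and the H2B median -0.09, and with siRNA 1 the H2B median is 0.97.

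By class, siRNA 2 gave medians of -0.90 for H1, -1.02 for H2A, -0.62 for H3 and -0.83 for H4, with H2B at -0.09. SiRNA 1 gave 0.02 for H1, -0.31 for H2A, -0.16 for H3 and 0.14 for H4, with H2B at 0.97. H2B was thus the highest class with both siRNAs, under loess and under median centring. The 3 positions lay closer together, with siRNA 2 medians of -0.70 and -0.56 for the chromosome 6 groups and -0.74 for chromosome 1. With siRNA 1 these medians were -0.06, 0.26 and -0.19. The chromosome 1 median rests on 7 genes, none of them H2B, so position and class are mixed. Centring arrays on the median in place of loess put all genes at 0.31 with siRNA 1 and 0.13 with siRNA 2. Under it, the siRNA 1 medians were 0.10 for H2A and 0.38 for H3, so their sign turned, and H2B turned from -0.09 to 0.20 with siRNA 2. The siRNA 2 medians stayed below 0 for H1, H2A, H3 and H4 under loess, median centring and the scanner's own ratio.

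For si-GINS1 as a group, limma called 6 of 71 histone probes tested lower, against 3.63% of all 27804 probes, and 1 higher, against 3.32%. The probes called lower were 5 H2A probes of 4 genes and 1 H2B probe. HIST1H2AJ read -0.60 with siRNA 1 and -1.08 with siRNA 2, a mean of -0.84 ± 0.34 (SD, n = 2, SE 0.12, limma adjusted p = 0.0297). HIST1H2AH read -0.59 and -1.07 (limma adjusted p = 0.0295) and HIST1H2AK -0.55 and -1.03 (limma adjusted p = 0.0334). These near-identical probes, shown above, gave nearly equal values and may share signal, so their calls are not counted as separate evidence. HIST1H2AD, also alike, read -0.17 and -0.43 and was not called.

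Both probes of HIST1H2AM fell. The brighter had a mean of -0.74 ± 0.37 (SD, n = 2, SE 0.13, limma adjusted p = 0.0436) and the other, 70 bases downstream, -0.66 and -1.51 (limma adjusted p = 0.0481). HIST1H2BE was the only one of the 13 H2B genes below 0 with both siRNAs, at -0.48 and -0.37, a mean of -0.43 ± 0.07 (SD, n = 2, SE 0.05, limma adjusted p = 0.0233). Its probe carries the stem-loop and was dim. It read 60.9 (Cy3) and 44.8 (Cy5) units with siRNA 1, and 55.1 and 37.8 with siRNA 2. The offset of the background correction pulls ratios of such dim probes towards 0. The 1 gene called higher was HIST2H2AA4 of chromosome 1, at 0.72 and 0.35 (limma adjusted p = 0.0482), the only one of the 14 H2A genes above 0 with both siRNAs. Its probe is annotated with 2 RefSeq entries, so the value may not be of 1 copy. All 7 called probes were above background in both channels on both arrays. At an unadjusted p under 0.05, 30 of the 71 histone probes passed, 26 of them lower, beside 7214 of all 27804 probes. Median centring left 3 calls, 1 lower and 2 higher, beside 285 lower and 2688 higher of all 27804 probes. The smaller offset of 10 gave 7 lower and 0 higher, beside 980 and 535 of all. With the scanner's ratio 0 were called, beside 59 lower and 16 higher of all. The 2 arrays alone or a trended robust prior also gave 0. For the arrays alone and the trended robust prior 0 of all 27804 probes were called, GINS1 and the genes of every list included. With the cell line as a random replicate block 47 were called, 34 of them lower, beside 5036 lower and 5481 higher of all 27804 probes. Without siRNA 1 the count was 52, with 50 lower, and without siRNA 2 it was 38, with 14 lower and 24 higher. Over all probes these fits called 3475 lower and 3232 higher of 28633, and 4258 lower and 5215 higher of 29685, the lone array being assumed to vary like the other groups.

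Several genes with low values for siRNA 2 were not called, and their values with both siRNAs lay far apart. Only HIST1H3B and HIST2H3A had means below those of all called probes. HIST1H3B read -0.37 with siRNA 1 and -2.09 with siRNA 2 (limma adjusted p = 0.144), and HIST2H3A -0.19 and -2.03 (limma adjusted p = 0.190). On a linear scale the siRNA 2 values are 0.234 and 0.245 of the mock. HIST1H4B read -0.12 and -1.29, HIST1H4L -0.12 and -1.28 and HIST1H4C -0.06 and -1.19. HIST1H1E, a linker histone gene, read -0.35 and -1.23 (limma adjusted p = 0.0936). In each of these genes the siRNA 2 array read lower than the siRNA 1 array.

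**Figure D2:**
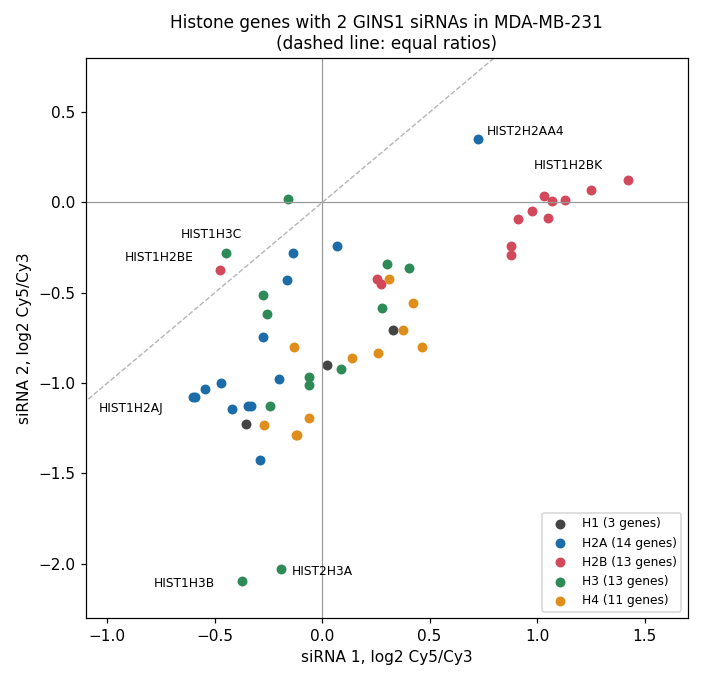
Log2 ratio with siRNA 1 (horizontal) against siRNA 2 (vertical) in MDA-MB-231, 1 point per histone gene, coloured by class; the dashed line marks equal ratios. Of 54 points 51 lie below the line, and the H2B points sit to the right, between 0.88 and 1.42 with siRNA 1 for 10 genes.

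H2B genes stood to the other side. The 10 genes that reached 0.8 with siRNA 1, a limit chosen after their values were seen, were HIST1H2BB, HIST1H2BC, HIST1H2BD, HIST1H2BG, HIST1H2BH, HIST1H2BI, HIST1H2BK, HIST1H2BL, HIST1H2BM and HIST1H2BO. They read between 0.88 and 1.42 with siRNA 1 (median 1.04) and between -0.29 and 0.13 with siRNA 2 (median -0.02). HIST1H2BK was highest, at 1.42 and 0.13 (limma adjusted p = 0.203), which is 2.68 times the mock with siRNA 1. HIST1H2BG read 1.25 and 0.07 (limma adjusted p = 0.218). None of the 10 was called. The other H2B genes were HIST1H2BE, above, HIST1H2BJ at 0.27 and -0.45, and HIST1H2BN at 0.26 and -0.42. HIST2H2BF, above background on 4 arrays only and so outside the medians, read 0.84 and 0.13.

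The same 10 genes were above 0 on both HCT116 arrays, which carried other RNAs and another line. They read between 0.20 and 0.49 on the miR-490-5p array and between 0.38 and 1.25 on the other. On the 4 miR-139 arrays they lay between -0.22 and 0.14. The 41 genes of H1, H2A, H3 and H4 read a median of -0.13 with siRNA 1 and -0.90 with siRNA 2, with 27 and 39 of them below 0. In HCT116 their median was -0.08 for the 5p strand and -0.25 for the 3p strand, with 31 and 38 below 0. As many of the 10 H2B probes are near-identical, they do not count as 10 separate measurements.

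**Figure D3:**
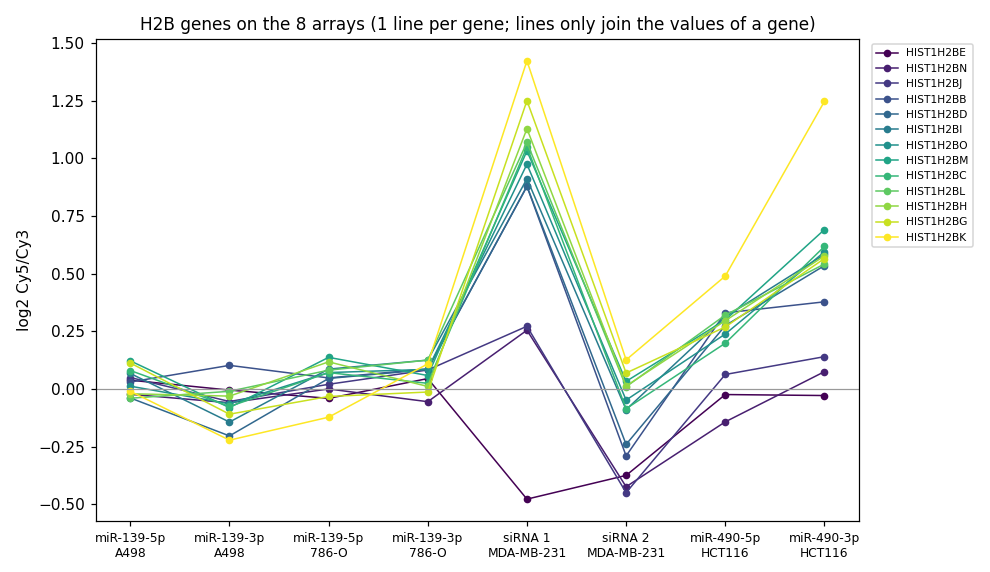
Log2 ratio of each of the 13 H2B genes on the 8 arrays; a line joins the values of 1 gene and stands for no time course. HIST1H2BK reaches 1.42 with siRNA 1 and 1.25 with miR-490-3p, while all genes lie between -0.22 and 0.14 on the miR-139 arrays.

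The siRNAs were set against each other directly, with 1 array each and so no test. Of 71 probes 23 were lower by at least 1 log2 unit with siRNA 2, against 2.52% of all probes, and 0 were higher, against 2.28%. Against the mock, siRNA 1 put 0 of 73 probes at or below -1 (1.85% of all) and 7 at or above 1 (0.876% of all). SiRNA 2 put 17 of 71 at or below -1 (1.15% of all) and 0 at or above 1 (0.517% of all). By genes, siRNA 2 was lower in 3 of 3 H1, 14 of 14 H2A, 12 of 13 H2B, 11 of 13 H3 and 11 of 11 H4 genes. The widest gaps were -1.84 for HIST2H3A, -1.72 for HIST1H3B, -1.30 for HIST1H2BK and -1.27 for HIST1H4K. The exceptions were HIST1H3I (0.18), HIST1H3C (0.17) and HIST1H2BE (0.10).

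Genes that work with histones were followed by lists. The S phase genes, such as the MCM helicase subunits and the nucleotide synthesis enzymes, also differed between siRNAs. All 16 were lower with siRNA 2, whose median was -0.87, than with siRNA 1, whose median was 0.13. CDC45, the helicase partner of the GINS complex, read 0.75 and -1.63, and TYMS, thymidylate synthase, 0.03 and -1.55. Of the 16, CCNA2, cyclin A2, was the only one called, at -0.69 and -0.73 (limma adjusted p = 0.0151), a share near that of all probes called lower (3.63%). The relation of these values to those of the histone genes was not tested.

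Of the histone chaperones and acetylation factors, 3 of 12 were called lower and 0 higher, beside 3.63% and 3.32% of all probes. RBBP4, a subunit of the CAF-1 chaperone, read -1.30 and -0.75 (limma adjusted p = 0.0285), NASP, an H3-H4 carrier, -0.49 and -0.63 (limma adjusted p = 0.0217) and RBBP7 -0.48 and -0.56 (limma adjusted p = 0.0253). The other CAF-1 subunits read 1.07 and -0.48 (CHAF1A) and 0.02 and -1.13 (CHAF1B). In HCT116, which received no GINS1 siRNA, RBBP4 was also low, at -1.35 for the 5p strand and -0.85 for the 3p strand. RBBP7 read -0.34 and 0.38 there, and NASP -0.02 and -0.17. A low RBBP4 ratio was thus not seen with the GINS1 siRNAs only, and its cause was not tested. Of the factors for transcription and 3′ end processing, 0 of 11 were called with si-GINS1. Their medians were 0.30 with siRNA 1 and 0.03 with siRNA 2. SLBP read 0.22 and 0.03 and NPAT, the coactivator of histone transcription, 0.23 and 0.02. The variants listed as replication-independent had 0 of 9 called and medians of 0.24 and -0.42. With siRNA 2 they ran from -1.16 for H2AFX, which read 0.45 with siRNA 1, to 0.14 for H2AFJ. Whether each listed gene is independent of S phase in these cells was not tested. The clustered genes known to give also polyadenylated transcripts had 0 of 7 called and medians of 0.60 and -0.34. Most of them are H2B genes, whose class medians were 0.97 and -0.09. The list medians are therefore not separate from the H2B class. Its members of other classes read 0.33 and -0.70 (HIST1H1C) and -0.20 and -0.98 (HIST1H2AC).

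Several genes had more than 1 probe, and probes far downstream of the gene body could differ from it. HIST1H2AC read -0.20, -0.98 and -0.29 with siRNA 1, siRNA 2 and miR-490-3p at its brightest probe. A probe 14361 bases downstream read 0.38, 0.51 and 0.45. HIST1H2BK, also of the polyadenylated list, read 1.42 with siRNA 1 at its downstream probe and 1.14 at the body probe 8246 bases upstream. With miR-490-3p these were 1.25 and 0.58. HIST1H4H read -0.86 with siRNA 2 at the body and 0.06 at a probe 4211 bases downstream, which was above background on 4 arrays only. In HIST1H2AC and HIST1H4H the 2 ends had opposite signs with siRNA 2.

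Probes of a gene that lay close together shared a direction with siRNA 2 in the genes plotted, and the dimmer one was often nearer 0. HIST1H4C read -1.19 with siRNA 2 at the bright probe and -0.93 at 338 bases upstream. HIST1H4L read -1.28 and, at a far dimmer probe, -0.08. HIST1H3H read -0.97 and, at its stem-loop probe, -0.22. The offset of the background correction pulls dim probes towards 0.

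**Figure D4:**
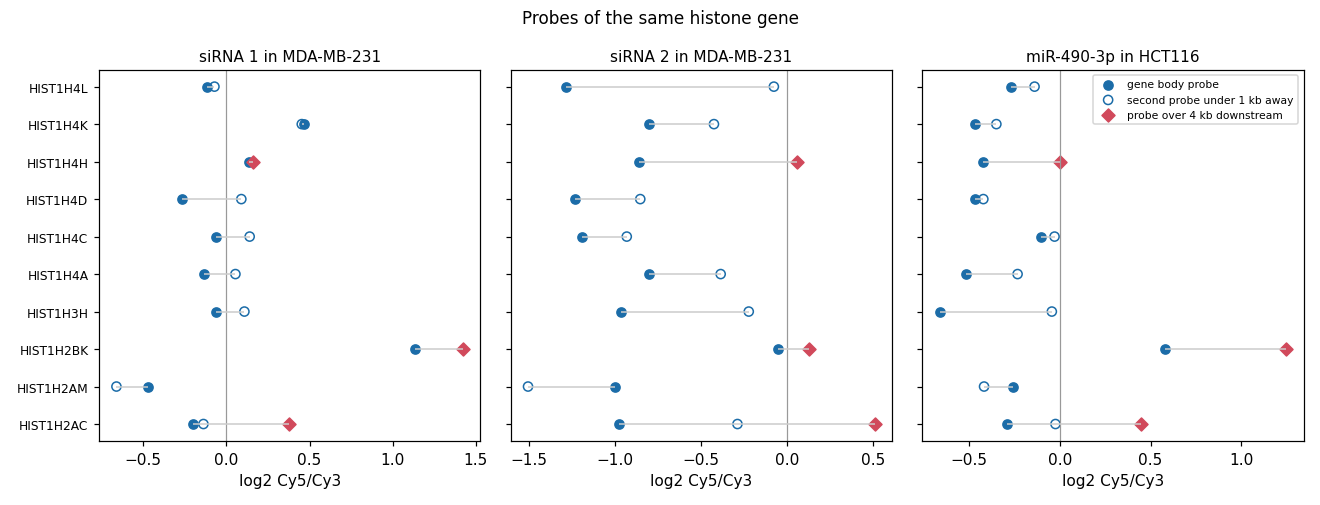
Log2 ratio (horizontal) of the probes of 10 histone genes on 3 arrays. Filled circles are probes in the gene body, open circles are other probes close by and diamonds are probes far downstream. The downstream probe of HIST1H2AC reads 0.51 with siRNA 2 and its body probe -0.98.

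In HCT116 the miR-490 strands, 1 array each and so without a test, gave smaller ratios. With miR-490-3p, 1 of 73 probes, of HIST1H2BK, was at or above 1 (0.346% of all) and 0 were at or below -1 (0.578% of all). With miR-490-5p, 0 of 71 were at or above 1 (0.265% of all) or at or below -1 (0.963% of all). Between strands 0 of 71 differed by 1 unit upwards (0.785% of all) or downwards (0.383% of all). The class medians with miR-490-3p were -0.16 for H1, -0.20 for H2A, 0.57 for H2B, -0.15 for H3 and -0.35 for H4, and with miR-490-5p -0.04, -0.11, 0.28, -0.25 and -0.03 in this order. Median centring, which put all genes at 0.13 with miR-490-3p, moved H1 to 0.00, H2A to 0.07 and H3 to 0.12, and left H2B at 0.77 and H4 at -0.13.

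The lowest gene of both strands was an H3 gene. HIST1H3F read -0.45 with the 5p strand and -0.76 with the 3p strand, and HIST1H3D -0.36 and -0.72. HIST1H3B and HIST1H3H read -0.69 and -0.66 with miR-490-3p. The HIST1H3F probe shared 31 of 35 overlapping bases with that of HIST1H3D and 51 of 57 with that of HIST1H3H. HIST1H3F, HIST1H3D and HIST1H3H may therefore share signal, which was not tested, and their values are not counted as separate measurements. The highest were H2B genes on both arrays. HIST1H2BK led both, at 0.49 and 1.25. Next came HIST1H2BB (0.33) and HIST1H2BL (0.32) with the 5p strand, and HIST1H2BM (0.69) and HIST1H2BC (0.62) with the 3p strand. All 11 H4 genes were below 0 with miR-490-3p, between -0.52 and -0.10. The widest gaps between strands were -0.44 for HIST1H3B and 0.76 for HIST1H2BK. The S phase median was -0.15 on the miR-490-5p array and 0.16 on the miR-490-3p array.

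In the renal lines the histone genes stayed near the mock. With miR-139-5p, 0 of 66 histone probes were called, against 0.0129% of all probes (3 of 23288), and with miR-139-3p 0 of 66, against 0.0% of all. Between strands 0 of 65 were called, against 0.0% of all. At an unadjusted p under 0.05 limma passed 0 histone probes with miR-139-5p, 1 with miR-139-3p and 1 between strands, beside 591 of 23288, 1014 of 22813 and 150 of 22178 of all probes. For miR-139-5p the median over the 54 genes was 0.05 in A498 and -0.03 in the 786-O line, and for miR-139-3p it was -0.01 and 0.01. None of the companion lists had a call in either comparison.

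The furthest genes with miR-139-5p were H4 genes, whose values were higher in A498. HIST1H4C read 0.30 in A498 and 0.11 in 786-O, HIST1H4L 0.32 and 0.05, and HIST1H4B 0.34 and -0.04 (all limma adjusted p = 1.0). The lowest was HIST1H2AE at -0.08 and -0.14. With miR-139-3p the highest were HIST1H3A, at 0.40 and 0.12, and HIST1H3J, at 0.32 and 0.16. HIST1H4E was lowest at -0.16 and -0.14, the 1 probe with an unadjusted p under 0.05. All 13 H3 genes were above 0 with miR-139-5p in A498, between 0.03 and 0.24, and 11 of 13 were below 0 in 786-O. Median centring put all genes at 0.20 with miR-139-5p in A498.

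Levels in the mock cells were compared over the 4 lines from the Cy3 channels, as log2 brightness after quantile normalization. These describe lines, with no test, since both mock channels of a line may be 1 extract. Of 76 histone probes 38 ranged over at least 1 log2 unit between lines, against 25.2% of all probes. The median range was 1.09 over histone genes and 0.68 over all genes, while both arrays of a line differed by at most 0.31 for any of the 54 genes. H3 and H4 genes were lowest in A498, with a median of -0.62 and -0.52 relative to the mean of the lines, and highest in 786-O (0.41 and 0.52). H2A genes were also low in A498, at -0.56, and were highest in MDA-MB-231, at 0.42, where 10 of 14 H2A and 9 of 13 H2B genes had their highest level. Centring uncorrected signals on the median, chosen after seeing the data, gave 65 probes in place of 38. The share of all probes under that setting is not given, so the rise cannot be read as particular to histone genes.

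HIST1H4E had the widest range. Its mock level was 10.21 in 786-O, 9.75 in HCT116 and 8.69 in A498, and it was not well above background in MDA-MB-231, which makes it at least 21.0-fold higher in 786-O. HIST1H2BK was 9.96 in MDA-MB-231, 9.58 in A498, 8.17 in HCT116 and 7.32 in 786-O at its downstream probe, a range of 2.64. At its body probe the range was 0.94, from 8.45 in MDA-MB-231 to 7.50 in 786-O. HIST1H3B spanned 10.15 in 786-O to 8.05 in A498, HIST1H1D 9.47 in 786-O to 7.26 in HCT116, and HIST1H4D ranged over 1.97 from its lowest level, in A498, to its highest, in 786-O. HIST1H1B was above background in 786-O only, at least 3.28-fold over A498. HIST3H3, known as a testis gene, was bright in every line, and 34 of 40 overlapping bases of its probe match that of HIST2H3D, so which gene it read here was not tested.

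**Figure D5:**
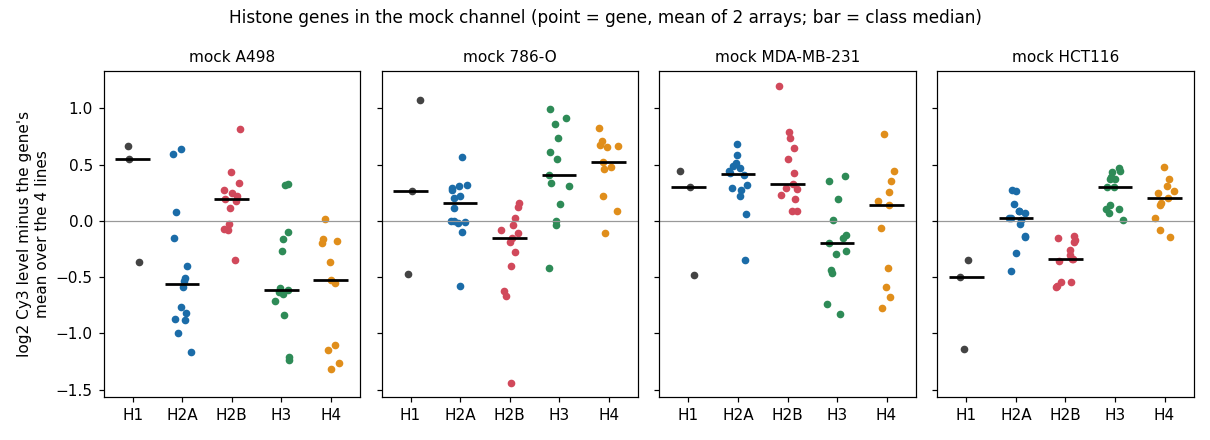
Mock level of the histone genes (log2 Cy3 brightness after quantile normalization) relative to the mean of the 4 lines, by class and line; points are genes and bars are medians. The A498 medians of H3 and H4 are -0.62 and -0.52, those of 786-O 0.41 and 0.52.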

How the data were processed

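RNA of transfected (Cy5) and mock (Cy3) cells was compared on 8 arrays. Per the file headers, all arrays were on 1 slide and were read out in Agilent Feature Extraction 11.5.1.1. The deposited intensity columns are mean spot brightness and median local background, on a linear scale without normalization. A log10 ratio (Cy5/Cy3) of the scanner software was deposited too, and the series-wide table the authors gave held the same values (largest difference 0); it served as an alternative. Total RNA was extracted with Trizol and labelled with a low-input linear amplification kit. Such kits usually prime from poly(A) tails, so how fully mRNAs without a tail were labelled is unknown here.

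Each array held 62976 spots, 2075 of them controls, for 58201 probes. Outlier spots (112 to 194 per array) were left out. In R 4.3.3 with limma 3.58.1, background was corrected by normexp (offset 50), log2 ratios were normalized by loess, and spots of a probe averaged. One limma model of 8 arrays and 5 groups (3 residual degrees of freedom) was fitted with Benjamini-Hochberg adjustment over all probes well above background in at least 1 channel on every array compared, called at 0.05. Single arrays had a limit of 1 log2 unit and no test. The number of arrays limits precision. The fit was tested on simulated data. Other software was Python 3.11.15 (matplotlib 3.10.9, numpy 2.4.6, scipy 1.17.1, pandas 2.3.3) and version 1.17.8 of the R package data.table. Named genes were the called probes, or the 5 lowest and highest genes of a comparison, and all list members. The members and lists were chosen with earlier results of these data known. Alternatives were other background corrections, centring, filters, removal of the dye effect, other spread estimates, a cell line block and leaving out arrays. The miR-139 arrays pair by cell line, since each line received both strands; deviations of paired arrays correlated at 0.0753 over 22178 probes.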

Additional observations from a re-analysis of the deposited data

Results flagged for a closer look

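The renal lines moved apart in 2 classes. The H3 median was above 0 on both A498 arrays, at 0.16 for the 5p strand and 0.04 for the 3p strand, and below 0 on both 786-O arrays, at -0.08 and -0.02, a mean difference of 0.145. The H4 median was 0.24 and 0.01 in A498 and -0.02 and -0.01 in 786-O, a mean difference of 0.138. In both classes every array of 1 line lay on the opposite side of 0 from the other line, and the difference was not tested. Under median centring the 786-O medians were -0.09 and 0.19 for H3 and 0.00 and 0.14 for H4, so the split by sign was lost. The H4 split was also lost with an offset of 10 and without background correction, where miR-139-3p in A498 read -0.01 and -0.00, and with the scanner log ratio, where miR-139-5p in 786-O read 0.01. The H3 split was lost with the scanner log ratio too, at 0.00 for miR-139-3p in 786-O.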

How the results depend on the processing

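The count of 7 histone probes called with si-GINS1 depended on how the spread was estimated and how arrays were scaled. It was 3 under median centring, 3 with no filter and 1 with the dye effect removed (the mean of the other groups subtracted). It was 0 with the scanner log ratio, with only the arrays compared or with a trended robust prior. It was 7 with an offset of 10, 8 without background correction and 7 when both channels had to be above background. Over all probes, 885 were called lower and 806 higher of 58195 with no filter, and 394 and 267 of 27796 with the dye effect removed. Without background correction these were 1029 and 634 of 27804, and with both channels above background 981 and 882 of 25119. Leaving out 1 siRNA gave between 38 and 52 calls. With the cell line as a random replicate block the count was 47 (34 lower, 13 higher). The pairing changed no call in the miR-139 comparisons, which had 0 histone calls under every alternative run. Past 1 log2 unit, miR-490-3p had 1 probe, 2 with the scanner log ratio and 0 with the dye effect removed. SiRNA 2 minus siRNA 1 had 23, 38 under median centring and 36 with the scanner log ratio. Shares of all probes past 1 log2 unit under these alternatives are not given, so such changes cannot be read as particular to histone genes. The median over histone genes moved from 0.01 to 0.17 (median centring) and 0.18 (dye effect removed) with miR-139-5p, and from -0.00 to 0.11 and 0.18 with miR-139-3p. Mock ranges past 1 unit numbered 65 in place of 38 when uncorrected Cy3 signals were centred on the median, an alternative chosen after seeing the data, as were the 35 on probes above background on all arrays and medians without the H2B genes (-0.52 in place of -0.38 with si-GINS1). The si-GINS1 median ran from -0.70 to 0.03 over its alternatives, and that of miR-490-3p, -0.15, from -0.25 to 0.11. No called value reversed. Over the checks of single genes, each 1 gene under 1 alternative, 38 lost the call, 22 moved and 204 did neither. The causes were not tested. Dim probes limit all ratios, since brightness lay near background for most of the array.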
